A study of Mus musculus with 12 samples.

Results

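The mechanistic target of rapamycin (mTOR) kinase works in a pair of complexes. mTORC1, built around Raptor, promotes protein synthesis and restrains autophagy, and mTORC2, built around Rictor, phosphorylates AKT. The TSC1/TSC2 complex keeps mTORC1 off by acting on the small GTPase RHEB, and AKT releases this brake. Active mTORC1 phosphorylates S6 kinase and the 4E-BP proteins, repressors that otherwise hold the cap-binding factor eIF4E. In macrophages this pathway couples Toll-like receptor and nutrient signals to metabolism and cytokine synthesis, and the study of these cells asked how accumulated oxidized low-density lipoprotein (oxLDL) alters the AKT-dependent response to LPS. The transcripts described here are those of 10 genes chosen by name from the 43278 rows of the expression table: the kinase Mtor, its scaffolds Rptor and Rictor, the upstream regulators Tsc1, Tsc2, Rheb and Ddit4, and the downstream repressors and kinase Eif4ebp1, Eif4ebp2 and Rps6kb1. All 10 passed the filter on low values in every comparison.

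The cells were peritoneal macrophages (PMφs) that thioglycolate had drawn into the peritoneum of wild-type C57BL/6J mice, and poly(A) RNA was sequenced from 12 libraries in 4 groups of 3. Control PMφs received neither agent. The LPS group received 10 ng/ml LPS, the oxLDL group 100 µg/ml human oxLDL for 24 h, and the oxLDL+LPS group both. The study's methods describe PMφs pooled from male and female littermates and then divided among the groups. Libraries that share a replicate number varied together. The labels do not state that a number marks a single pool. Below, pool is only a short word for replicate number, whatever that number marks. The time in LPS before the RNA was taken is not stated for these libraries. The deposited values are gene counts scaled by 1 factor per library and rounded, called normalized counts below, and the spacing of the values implied 16725623 to 26178592 counted reads per library. Of 7 macrophage markers, 6 were in the table at a summed value of 225490 to 295315, and Adgre1 was not found. The sum came largely from Lyz2 (157225 to 215646) and Cd68 (35765 to 51371). Csf1r was at 7579 to 17280, Itgam at 6269 to 9011, Mertk at 2199 to 8006 and Fcgr1 at 436 to 8081. Of the other cells such an exudate can hold, all 9 mesothelial and fibroblast markers were detected, their sum ranging from 5362 to 31675. It came largely from Col1a1 (1782 to 12012), Col1a2 (1644 to 10339), Pdgfra (712 to 4164) and Col3a1 (524 to 2882). The mesothelial markers were low, with Upk3b at 26 to 272, Krt19 at 8 to 62, Krt8 at 11 to 43 and Msln at 2 to 14. The summed ranges were 200 to 1710 for 6 neutrophil markers, mostly Mmp8 (131 to 1661) and S100a8 (31 to 248), with Ly6g at 0 in all libraries and S100a9 at 0 or 1, and 58 to 385 for 5 eosinophil markers, mostly Siglecf (55 to 383), with Prg2 and Ear6 at 0. For 6 T cell markers the sum was 24 to 244, largely from Lck (11 to 234) and Cd2 (3 to 25). Cd3d, Cd3e and Cd3g were at 0 to 2 and Trac at 0 to 3. The summed ranges were 44 to 87 for 6 B cell markers and 34 to 112 for 5 mast cell markers. In such bulk samples, fewer cells of a type and less RNA per cell cannot be told apart.

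The sequence upstream of the start site is shown for the 4 genes with the largest LPS responses, Rictor and Ddit4, which rose, and Tsc1 and Eif4ebp2, which fell. RefSeq (GRCm38.p6) held windows for 9 of the 10 genes, and Eif4ebp1 had no entry. The bases printed lie outside the genes as GENCODE bounds them, read 5′ to 3′ on the strand of the gene. Capitals mark ACGTG, a form of the core of a hypoxia response element, or its reverse complement. Other forms of that core were not searched for.
Rictor (chr15:6708131-6708378, plus strand): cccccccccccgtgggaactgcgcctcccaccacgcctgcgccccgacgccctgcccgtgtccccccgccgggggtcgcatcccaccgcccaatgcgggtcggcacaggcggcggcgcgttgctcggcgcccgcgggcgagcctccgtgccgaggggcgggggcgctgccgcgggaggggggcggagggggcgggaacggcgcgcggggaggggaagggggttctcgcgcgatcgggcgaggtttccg
Ddit4 (chr10:59951835-59952020, minus strand): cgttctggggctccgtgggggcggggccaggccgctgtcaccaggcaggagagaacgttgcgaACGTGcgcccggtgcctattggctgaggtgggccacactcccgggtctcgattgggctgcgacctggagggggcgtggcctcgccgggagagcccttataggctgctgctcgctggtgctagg
Tsc1 (chr2:28640983-28641227, plus strand): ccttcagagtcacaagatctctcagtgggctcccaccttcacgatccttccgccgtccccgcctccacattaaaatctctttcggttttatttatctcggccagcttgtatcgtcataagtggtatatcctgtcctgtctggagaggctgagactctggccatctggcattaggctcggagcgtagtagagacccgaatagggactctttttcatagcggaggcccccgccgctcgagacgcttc
Eif4ebp2 (chr10:61452670-61452919, minus strand): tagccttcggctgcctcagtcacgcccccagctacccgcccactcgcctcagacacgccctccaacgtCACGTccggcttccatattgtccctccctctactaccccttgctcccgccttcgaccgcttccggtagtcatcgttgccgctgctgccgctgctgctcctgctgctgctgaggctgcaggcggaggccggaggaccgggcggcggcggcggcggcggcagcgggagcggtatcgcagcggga
Both strands of the 250 bases before each RefSeq start were searched for ACGTG, for the E-box CACGTG (which contains it), for the C/EBP-ATF element TGATGNAA and for the NF-κB consensus. ACGTG was found 187 bases upstream of the Ddit4 start and 182 upstream of the Eif4ebp2 start, and also in the windows of Rptor and Rheb, so that it was present upstream of genes called higher and of a gene called lower after LPS. Of 32851 RefSeq windows of this length, 16.6% held ACGTG. The E-box was found in the Rheb window (6.02% of all windows), and the TGATGNAA element (3.45%) and the NF-κB consensus (3.9%) in none of the 9 windows. These matches describe the letters in a window and not a bound site.

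In resting PMφs the transcripts of 4E-BP1 and RHEB were the most abundant of the 10. Per kilobase of annotated exon, Eif4ebp1 stood at 320 ± 52.9 normalized counts (SD, n = 3), ahead of Rheb at 193 ± 14.9, Eif4ebp2 at 189 ± 12.4, Tsc2 at 158 ± 12.5 and Tsc1 at 114 ± 6.26. Mtor (91 ± 4.36), Rps6kb1 (87.9 ± 4.01) and Rptor (80.2 ± 4.12) came next, and Ddit4 (42.4 ± 21.8) and Rictor (30.1 ± 2.98) were lowest. The ranges of Rheb (181 to 210) and Eif4ebp2 (176 to 201) overlapped, as did those of Mtor and Rps6kb1 and those of Ddit4 and Rictor, so these neighbours did not differ beyond their spread. Annotated length mattered here, since per kilobase of the longest transcript Rheb (368 ± 28.5) came before Eif4ebp1 (351 ± 58.2) and Rptor stood at 164 ± 8.41, in the 6th place. On the scale of all annotated exons Rictor was the scarcest transcript in control and in oxLDL-loaded PMφs. After LPS the bottom place passed to Tsc1 (66.1 ± 7.77 per kilobase), with Rictor next at 74.8 ± 10.7 in an overlapping range. Ddit4 then had a mean of 110 ± 42.1, in the 4th place. Its range of 62.1 to 142 overlapped those of its neighbours Tsc2 (127 to 151) and Mtor (93.1 to 118). Per kilobase of the longest transcript Ddit4 was in the 8th place after LPS. Eif4ebp1 was first in all 4 groups on this scale, and Rheb was on that of the longest transcript.

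**Figure D1:**
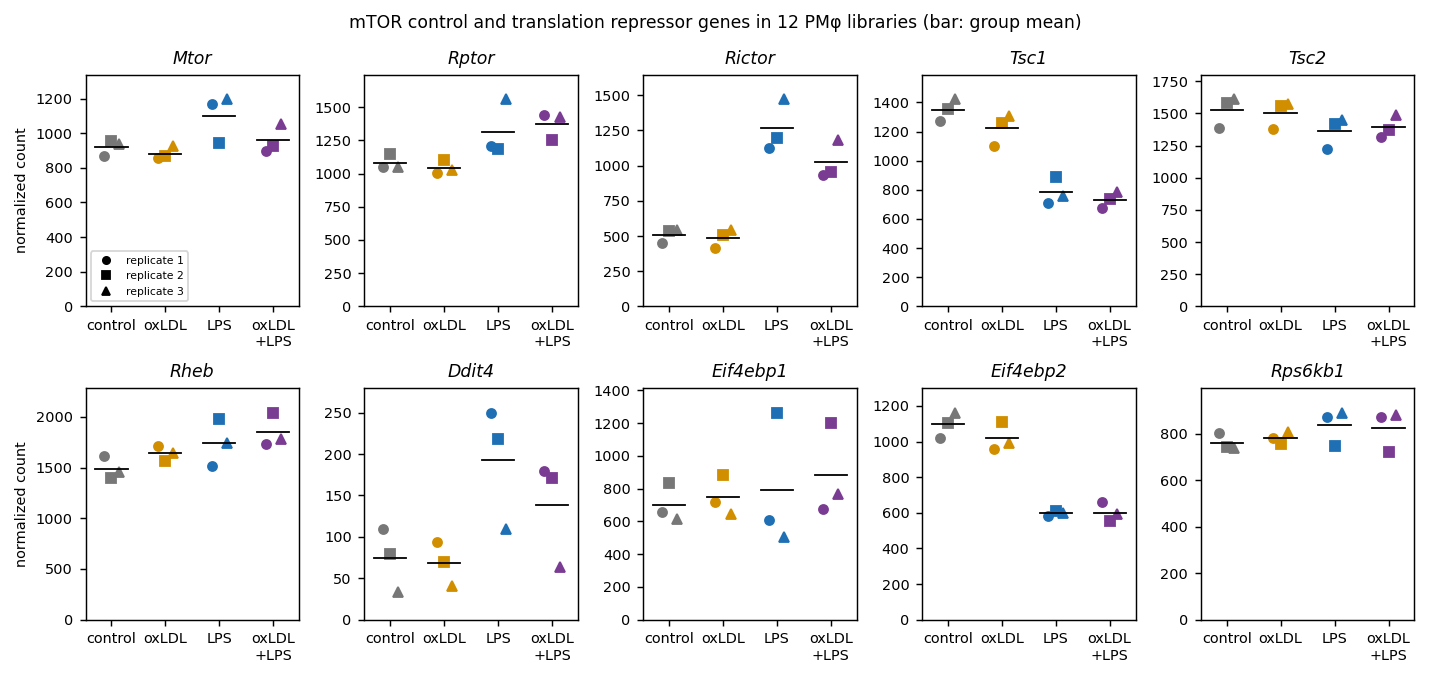
Normalized counts (vertical axes, from 0) of the 10 transcripts in each of 12 PMφ libraries, by group, with the symbol giving the replicate number and the bar the group mean. Rictor separates the libraries with LPS (933 to 1471) from those without (417 to 543), Tsc1 and Eif4ebp2 do so in the opposite direction, and Ddit4 and Eif4ebp1 spread widely by replicate number.

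The largest responses to LPS in PMφs without oxLDL were a rise of Rictor and of Ddit4 and a fall of Eif4ebp2 and Tsc1. Across the table LPS changed most transcripts: of 13023 genes tested, 31.4% were higher and 30.3% lower (limma, Benjamini-Hochberg adjusted p under 0.1), 61.7% in all. Of the 10 members 6 were called, 4 higher and 2 lower, which is a share close to that of all genes. The LPS and control libraries did not overlap in 2 members that were higher and 2 that were lower, against 32.1% higher and 31.1% lower of all genes, 63.2% in all. With the replicate number as a block 68.7% of all genes and again 6 members were called. The median log2 fold change of the members was 0.18, and that of all genes tested was 0.00. The libraries with LPS also had larger sums of normalized counts, 22071853 to 26384551 against 17152972 to 17709731 without LPS. If every library was scaled to its total instead, the median of all genes moved by -0.48 on the log2 scale, and the share of higher genes among those called dropped from 50.9% to 23.1%. The members' calls then went from 4 higher and 2 lower to 1 higher and 6 lower, and with TMM factors to 2 higher and 3 lower. All log2 changes given here are on the deposited scale, where the median gene stood at 0.00, and so are changes relative to that gene.

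Rictor, the defining scaffold of mTORC2, stood at 451, 533 and 543 normalized counts in the 3 control libraries and at 1128, 1200 and 1471 after LPS. Every LPS library was thus above every control library, and the group means differed 2.49-fold. The log2 fold change was 1.31 (SE 0.13, adjusted p = 1.058e-04), and within replicate numbers it was 1.32, 1.17 and 1.44. Rptor, its counterpart in mTORC1, moved far less. Its values were 1049, 1144 and 1047 in control and 1205, 1185 and 1558 after LPS, which do not overlap but lie close. The log2 fold change was 0.27 (SE 0.12, adjusted p = 0.0961), just inside the threshold. Mtor, the kinase both scaffolds share, showed 870, 952 and 939 in control against 1169, 941 and 1195 after LPS, so that replicate 2 of the LPS group lay within the control range. Its log2 fold change of 0.25 (SE 0.11, adjusted p = 0.0993) was also just inside. The calls of Mtor and Rptor were fragile: both were lost with TMM factors (adjusted p = 0.178 and 0.136) without LPS replicate 3 (0.253 and 0.246), without the filter on low values (0.154 and 0.149) and without the variance trend (0.148 and 0.147), and with scaling to the library total the changes turned to -0.23 and -0.21. The Mtor call was also lost without LPS replicate 1 and without any one of the control libraries (adjusted p from 0.152 to 0.251), and the Rptor call without any one of the control libraries (0.125 to 0.215).

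Among the upstream regulators, the brake genes split. Tsc1, which encodes the subunit that stabilizes the complex, stood at 1273, 1352 and 1421 in control and fell to 707, 885 and 756 after LPS, 58% of the control mean. The groups did not overlap, and the log2 fold change was -0.79 (SE 0.11, adjusted p = 5.782e-04). Tsc2, which encodes the GTPase-activating subunit, gave 1386, 1577 and 1609 in control and 1224, 1420 and 1452 after LPS. These groups overlapped, and the log2 difference of -0.16 (95% interval -0.41 to 0.09) was not called (adjusted p = 0.238). With library-total scaling and with TMM factors it was called (adjusted p = 4.199e-04 and 0.0915). Exons of Pkd1 on the opposite strand cover 693 bases, or 7.2%, of the Tsc2 exons, and whether the counting used strand is not given in the sources used here. Rheb, the GTPase that TSC2 acts on, ranged from 1395 to 1618 in control and was at 1517, 1983 and 1738 after LPS. Its log2 difference of 0.22 (SE 0.12, adjusted p = 0.151) was not called, although it was called without LPS replicate 1 (0.32, adjusted p = 0.0441) and with all 12 libraries in the fit (adjusted p = 0.0938). With library-total scaling it was called in the opposite direction (-0.26, adjusted p = 0.0784).

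Ddit4 encodes REDD1, a stress-induced protein that activates the TSC complex. Its values were 110, 79 and 34 in control replicates 1, 2 and 3 and 250, 218 and 109 in the LPS replicates of the same numbers. The groups overlapped, since replicate 3 after LPS lay just under replicate 1 of the control, while each number was higher with LPS, by 1.18, 1.45 and 1.65 on the log2 scale. The fitted change was 1.43 with SE 0.47 and adjusted p = 0.0335, and with the replicate number as a block the SE was 0.16 and the adjusted p 2.466e-04. The call without the block was lost when LPS replicate 1 was left out (1.2, adjusted p = 0.102) and with library-total scaling (0.95, adjusted p = 0.14). Without control replicate 3 the change was also 0.95 (adjusted p = 0.0741). Ddit4 was also the least deeply counted member, with 41 to 236 implied reads in these 6 libraries. The mesothelial and fibroblast markers had the same order over the numbers: their summed values were 24851, 17322 and 5756 in control and 31675, 14802 and 6215 after LPS. That sum was higher after LPS in replicates 1 and 3 and lower in replicate 2. Of the 9 markers 8 were tested and 0 were called in this comparison without the block, while 2 were higher and 1 lower with it. The neutrophil marker sum stood apart in replicate 3 in the other direction, at 200, 246 and 1311 in control and 445, 255 and 750 after LPS, and 1 of its 2 tested markers was called higher. The part of these cells in the Ddit4 values was not tested.

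Downstream of mTORC1, the transcripts of the 2 repressors behaved differently. Eif4ebp2, which encodes 4E-BP2, was at 1020, 1105 and 1162 in control and fell to 583, 608 and 598 after LPS, or 54.4% of the control mean. The LPS libraries lay close together and below all controls, with a log2 fold change of -0.87 (SE 0.09, adjusted p = 1.218e-04). Eif4ebp1 was at 655, 834 and 616 in control and at 609, 1264 and 507 after LPS. It was higher in replicate 2 (0.60) and lower in replicates 1 and 3 (-0.10 and -0.28), and the fitted difference was 0.07 with a 95% interval of -0.67 to 0.81. Without LPS replicate 2 it was -0.32, again not called. Rps6kb1, the S6 kinase gene, stood at 739 to 801 in control and at 870, 746 and 890 after LPS, a log2 difference of 0.13 that was not called (adjusted p = 0.315). With library-total scaling it was called lower (-0.35, adjusted p = 0.022). Its exons share 155 bases, 1.79%, with Rnft1 on the opposite strand.

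**Figure D2:**
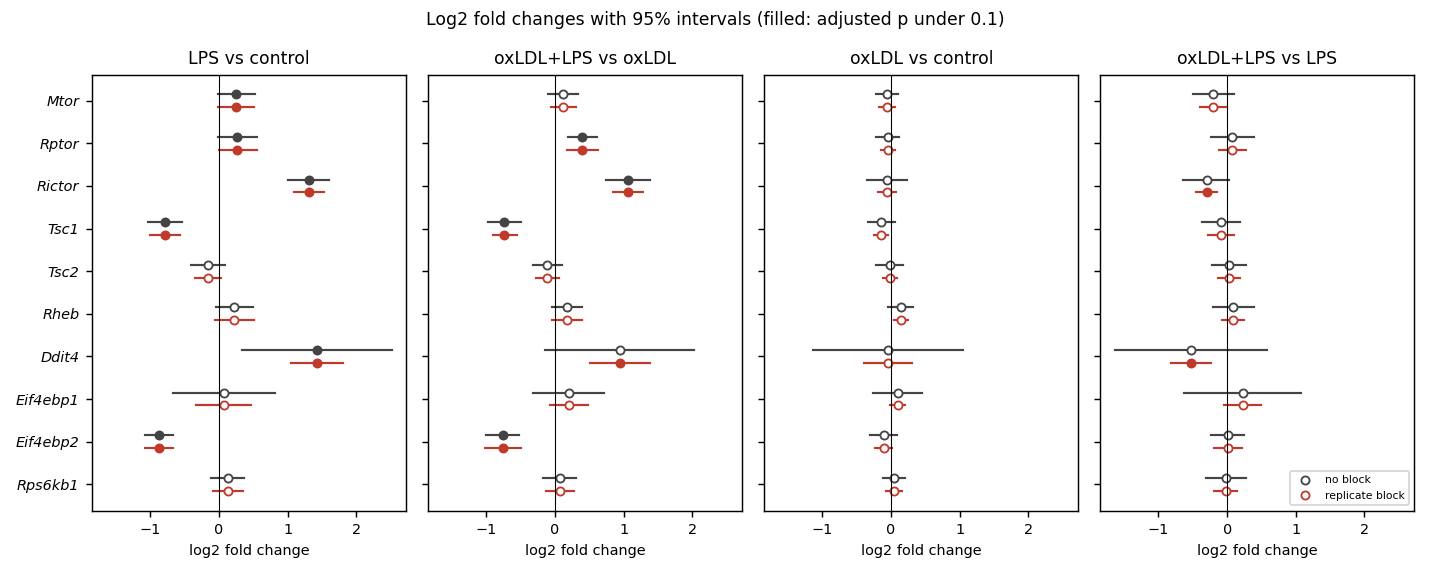
Log2 fold changes (horizontal axes) of the 10 transcripts in 4 comparisons, with 95% intervals, from fits without the replicate block (grey) and with it (red), filled where the adjusted p was under 0.1. Rictor at 1.31 and 1.07 and Eif4ebp2 at -0.87 and -0.76 stand apart from 0 in both LPS comparisons, whereas the oxLDL comparisons centre near 0.

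In PMφs loaded with oxLDL, LPS raised Rictor and Rptor and lowered Tsc1 and Eif4ebp2. Of 12900 genes tested, 54.5% were called, 28.2% higher and 26.3% lower, and of the members 2 were called higher and 2 lower. Rictor was at 417, 508 and 541 in oxLDL-loaded PMφs and at 933, 956 and 1184 with oxLDL+LPS, a log2 fold change of 1.07 (SE 0.14, adjusted p = 6.702e-04). Rptor went from 1002, 1098 and 1027 to 1443, 1256 and 1425, and its change of 0.40 (SE 0.09, adjusted p = 0.00846) was called with every library left out in turn. With library-total scaling this Rptor change was 0.01. Tsc1 fell from 1101, 1259 and 1307 to 677, 738 and 784, 60% of the oxLDL mean (log2 -0.74, SE 0.10, adjusted p = 8.841e-04). Eif4ebp2 fell from 958, 1108 and 992 to 660, 552 and 592, 59% of that mean (log2 -0.76, SE 0.10, adjusted p = 8.310e-04). Neither pair of groups overlapped.

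Ddit4 in the oxLDL-loaded cells was at 94, 70 and 41 without LPS and at 179, 171 and 64 with it. The third pool stayed below the other two in both groups, and the ranges overlapped. The log2 difference of 0.94 (SE 0.46) was not called without the block (adjusted p = 0.136) and was called with it (SE 0.18, adjusted p = 0.00502). The difference was also called without oxLDL+LPS replicate 3 (1.42, adjusted p = 0.0199), whereas without oxLDL replicate 3 it was 0.62 (adjusted p = 0.341) and with library-total scaling 0.56 (0.337). The mesothelial and fibroblast marker sums of these libraries were 20416, 14353 and 6031 without LPS and 18366, 16250 and 5362 with it. That sum was lower with LPS in replicates 1 and 3 and higher in replicate 2, and its part in the Ddit4 difference was not tested. Rheb ranged from 1564 to 1717 without LPS and from 1733 to 2042 with it. These ranges did not overlap, as in 57.6% of all genes, but the difference of 0.17 was not called (adjusted p = 0.161). Mtor (0.12), Tsc2 (-0.11), Eif4ebp1 (0.20) and Rps6kb1 (0.07) were not called either. With the block, 63.4% of all genes and 5 members were called.

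Loading with oxLDL alone left these transcripts close to control. In limma without the block 0 of 12751 genes were called, with 381 at an unadjusted p under 0.05, and 0 of the 10 members reached even that. With the block 4.71% of all genes were called and again 0 members. The 95% intervals with the block lay within 0.25 of 0 on the log2 scale for 9 of the 10, the exception being Ddit4 with -0.39 to 0.30. The most uniform shifts were small. Tsc1 was at 1101, 1259 and 1307 against 1273, 1352 and 1421 in control, with differences of -0.21, -0.10 and -0.12 within replicate numbers (fitted -0.14, adjusted p = 0.15 with the block). Rheb was at 1717, 1564 and 1641 against 1618, 1395 and 1455, higher by 0.09, 0.16 and 0.17 (fitted 0.14, adjusted p = 0.14 with the block). Both were called only when replicate 3 was left out of the blocked fit (adjusted p = 0.0403 and 0.0946).

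Once LPS was present, Rictor and Ddit4 were the members with the largest negative differences between loaded and unloaded PMφs, and their calls depended on the block. Without it 0 of 12786 genes were called, with 890 at an unadjusted p under 0.05, none of them a member. With it 13.2% were called, 4.42% higher and 8.74% lower, and 2 of the 10 members were called, both lower. Rictor was at 933, 956 and 1184 with oxLDL+LPS and at 1128, 1200 and 1471 with LPS alone, 80.9% of the LPS mean. The groups overlapped, because the third pool was the highest in both, while the differences within numbers were -0.27, -0.33 and -0.31. The fitted difference of -0.30 had SE 0.14 and adjusted p = 0.722 without the block, and SE 0.07 and adjusted p = 0.0367 with it. Ddit4 was at 179, 171 and 64 against 250, 218 and 109, 71.8% of the LPS mean, with differences of -0.48, -0.35 and -0.76. Its fitted difference of -0.53 had adjusted p = 0.832 without the block and 0.0431 with it. The mesothelial and fibroblast sum of the same libraries was 18366, 16250 and 5362 against 31675, 14802 and 6215, lower in replicates 1 and 3 and higher in replicate 2, and its part in the Ddit4 difference was not tested.

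These 2 calls depended on which pools were in the blocked fit. Without replicate 1 it called 71 genes in all and 0 members (adjusted p = 0.23 for Rictor and 0.235 for Ddit4), without replicate 3 it called 0 genes (0.373 and 0.375), and without replicate 2 it called 2945 genes and 4 members. The differences themselves were -0.29 to -0.32 for Rictor and -0.41 to -0.62 for Ddit4 in these fits. With single libraries left out of the fit without the block they ranged more widely, from -0.41 to -0.19 for Rictor and, for Ddit4, from -0.89 without LPS replicate 3 to -0.05 without oxLDL+LPS replicate 3. The other 8 members had blocked log2 differences from -0.20 for Mtor (95% interval -0.39 to 0.00) to 0.23 for Eif4ebp1 (-0.04 to 0.49). Eif4ebp2 differed by 0.01, with an interval of -0.19 to 0.21, so a log2 difference beyond 0.21 between loaded and unloaded cells after LPS lay outside it. Whether the response to LPS itself differed between loaded and unloaded PMφs was tested as an interaction over the 12 libraries. It was called for 0 of 13482 genes by limma without the block (418 at an unadjusted p under 0.05, none a member) and for 0 with the block. The interaction was -0.24 for Rictor (95% interval with the block -0.48 to -0.01, adjusted p = 0.695) and -0.48 for Ddit4 (-0.95 to -0.02, adjusted p = 0.695). With single libraries left out it ranged from -0.35 to -0.13 for Rictor and from -0.85 to -0.01 for Ddit4. Rictor therefore rose 2.49-fold in unloaded and 2.10-fold in loaded PMφs without a called difference between these rises.

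Ratios of partner transcripts within a library do not depend on the scaling of the libraries, apart from rounding. They were looked at after the design was set and are described per kilobase. The ratio of Rptor to Rictor was 2.92, 2.70 and 2.42 in control and 1.34, 1.24 and 1.33 after LPS. It was 3.02, 2.72 and 2.39 with oxLDL and 1.94, 1.65 and 1.51 with oxLDL+LPS. The ratio was thus lower with LPS in each pool, with log2 differences of -1.12, -1.12 and -0.86 in unloaded cells and of -0.64, -0.72 and -0.66 in loaded cells. After LPS the loaded libraries all lay above the unloaded ones, by a mean log2 difference of 0.38. Within replicate numbers 1, 2 and 3 this difference was 0.53, 0.41 and 0.18. Without LPS the difference between loaded and unloaded was 0.01. Whether the loading difference itself changed with LPS was not tested for the ratio. In an exact two-sided permutation test of 3 against 3 libraries these LPS differences and the 0.38 each had p = 0.1, the smallest such a design allows. The test did not pair libraries by replicate number, and its p-values were not adjusted for the number of ratios compared.

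The ratio of Tsc1 to Tsc2 was 0.747, 0.697 and 0.718 in control and 0.648, 0.659 and 0.674 with oxLDL. It was 0.470, 0.507 and 0.423 with LPS and 0.418, 0.437 and 0.428 with oxLDL+LPS. Loaded PMφs without LPS were below control in each pool (log2 differences of -0.21, -0.08 and -0.09, exact permutation p = 0.1), and the ranges did not overlap. With LPS present the loaded and unloaded ranges overlapped, with differences of -0.17, -0.21 and 0.02 (exact permutation p = 0.3). For Eif4ebp1 to Eif4ebp2 the ratio was 1.69, 1.99 and 1.40 in control against 2.75, 5.48 and 2.23 with LPS, and 1.97, 2.10 and 1.72 with oxLDL against 2.71, 5.72 and 3.43 with oxLDL+LPS (exact permutation p = 0.1 for each). It was higher with LPS in each pool, with the largest difference in the second. The sum of both repressor transcripts per kilobase was, on the deposited scale, 509 ± 53.7 in control and 464 ± 189 after LPS (SD, n = 3).

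**Figure D3:**
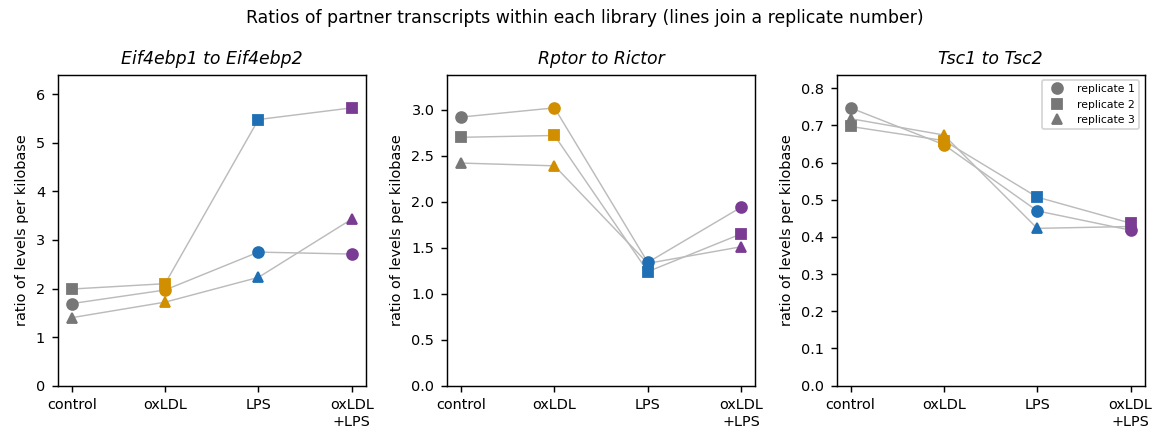
Ratios of levels per kilobase (vertical axes, from 0) for 3 pairs of partner transcripts in each library, by group, with lines joining libraries of one replicate number. Rptor to Rictor lies at 2.42 to 2.92 in control, at 1.24 to 1.34 after LPS and at 1.51 to 1.94 with oxLDL+LPS, while Eif4ebp1 to Eif4ebp2 reaches 5.48 and 5.72 in replicate 2.

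The members differed in how much of their variation followed the treatment and how much the pool. Of the variance of log2 values over the 12 libraries, LPS took 95.5% for Eif4ebp2, 91.2% for Tsc1 and 91% for Rictor, against a median of 61% over all genes tested. The replicate number took 71.2% for Eif4ebp1, 59.5% for Tsc2, 49.3% for Rps6kb1 and 46.7% for Ddit4, against a median of 11.3%. The share of oxLDL was at most 17.3%, for Mtor, and the median of all genes was 1.83%. For Ddit4, LPS and the replicate number took equal shares of 46.7%.

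**Figure D4:**
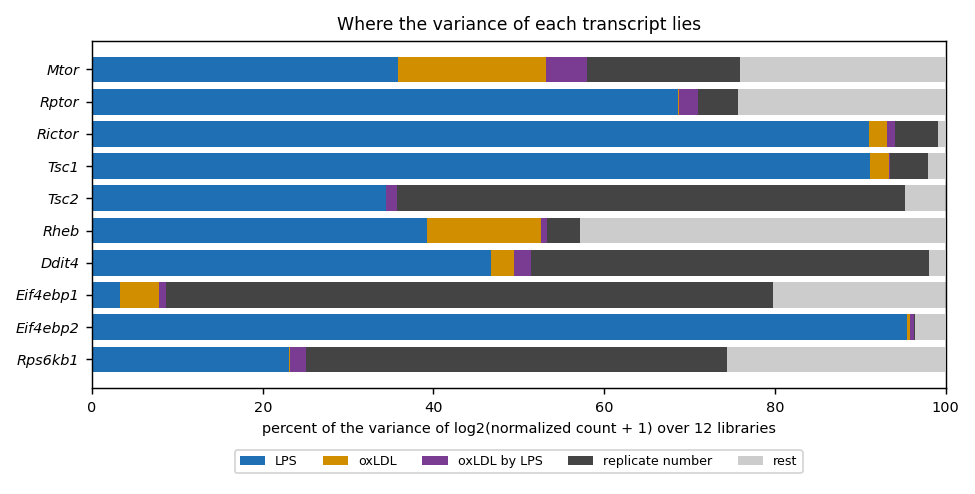
Percent of the variance of log2(normalized count + 1) over the 12 libraries (horizontal axis) that lies with LPS, oxLDL, their interaction, the replicate number and the rest, for each transcript. Eif4ebp2, Tsc1 and Rictor are almost all LPS (91% to 95.5%), and Eif4ebp1 is mostly replicate number (71.2%).

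Genes whose pattern over the 12 libraries was most like that of a member were sought among 9073 genes with a mean of at least 100. This is a description only, since the libraries share 3 replicate numbers and the LPS contrast. Ddit4 was most like Adamts9 (Pearson r = 0.975), Osmr (0.974) and Fbn1 (0.972), a matrix protease, the oncostatin M receptor and the matrix protein fibrillin-1. Fbn1 had 368, 311 and 81 normalized counts in control and 1113, 555 and 311 after LPS, with the third pool lowest as for Ddit4. Eif4ebp1 was most like Shmt2 (0.954), a mitochondrial enzyme of serine and folate metabolism, Xpot (0.932), an exporter of tRNA, and Evi5 (0.932). Shmt2 was at 517, 1351 and 377 after LPS and at 546, 1408 and 487 with oxLDL+LPS, so that the second pool stood out as it did for Eif4ebp1 (1264 and 1198). Mtor was most like Gatad2b (0.933), Kdm3b (0.922) and Htt (0.922).

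The genes around mTOR were described from 7 lists, whose LPS counts stand beside 31.4% higher and 30.3% lower of all genes tested. Of 9 further subunits and chaperones of the mTOR complexes, 2 were called higher and 3 lower after LPS in unloaded PMφs, with a list median of -0.03. Deptor, an inhibitory subunit of both complexes, fell from 766 ± 53.2 to 84.0 ± 7.0 normalized counts (log2 -3.17, adjusted p = 8.116e-07). Mapkap1, a core subunit of mTORC2, fell by 0.38 on the log2 scale, while Prr5l, which binds mTORC2, rose by 0.91 and Tti2, part of a chaperone for such kinases, by 0.41. The Prr5l call was lost without any one of control replicates 1 and 3 and LPS replicates 2 and 3 (adjusted p from 0.106 to 0.143), and with library-total scaling Tti2 turned to -0.07. Of the PI3K, AKT and AMPK inputs, 9 were higher and 4 lower of 21 tested (median 0.14). Phlpp1, an AKT phosphatase, rose 4.24-fold and Pik3cd, a catalytic PI3K subunit, 2.87-fold, while Inpp5d, the lipid phosphatase SHIP1, fell to 728 ± 212 from 3080 ± 335. Akt1, an AKT kinase gene, fell from 5630 ± 110 to 3870 ± 116 (log2 -0.54, adjusted p = 8.057e-04), and Akt2 rose by 0.47 (adjusted p = 0.00593), although Akt2 was at -0.02 with library-total scaling.

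Of 28 amino acid sensing genes at the lysosome that were tested, 7 were called higher and 14 lower (median -0.25). Rragd, a Rag GTPase, fell from 1080 ± 195 to 152 ± 14.2 and Gatsl2, an older symbol of Castor2, from 745 ± 35.8 to 182 ± 21.5. The GATOR2 subunit genes Seh1l and Wdr59 rose 2.42-fold and 2.91-fold. Among 19 translation genes tested, 9 were higher and 6 lower (median 0.28). Larp1, which binds mRNAs of the translation machinery under mTORC1 control, rose from 3230 ± 198 to 18200 ± 2320 and Eif4e3, a cap-binding relative of eIF4E, 2.22-fold. Mknk2, a kinase of eIF4E, fell to 573 ± 107 from 4940 ± 253, and Eef2k, the kinase that brakes elongation, to 34.7 ± 11.9 from 175 ± 14.3. Of 12 other mTORC1 substrates and autophagy regulators, 3 were higher and 6 lower (median -0.57). Lpin1, a phosphatidate phosphatase, fell from 894 ± 159 to 32.3 ± 11.4 and Tfeb, a transcription factor of lysosomal genes, from 1310 ± 102 to 397 ± 21.5, while Mitf rose 2.15-fold and Srebf2, a regulator of sterol synthesis, 1.79-fold.

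Of 25 genes of ATF4 and the integrated stress response, 12 were higher and 3 lower (median 0.83). Eif2ak2, the RNA-sensing eIF2α kinase PKR, rose from 587 ± 23.7 to 8300 ± 621, and Slc7a11, the cystine transporter, 34.2-fold. Of the other eIF2α kinase genes, Eif2ak3 and Eif2ak4 fell, by 1.24 and 0.75 on the log2 scale. Eif2ak1 had a mean of 1400 in control and of 1330 after LPS. Atf4 itself rose by 0.73 (adjusted p = 0.0774). In the list of 14 hypoxia and glucocorticoid targets, 5 were higher and 7 lower (median -0.89). Hif1a, which that list holds as the hypoxia transcription factor gene and not as a target, rose 4.26-fold. Fkbp5 rose 3.02-fold, and Tsc22d3, a glucocorticoid target, fell from 2460 ± 210 to 229 ± 43.1. Zbtb16 was at 18 to 25 in control and at 0 or 1 after LPS. In these lists 3 genes did not pass the filter, among them Ddit4l, the relative of Ddit4, and Eif4ebp3, the third 4E-BP gene, at means of 8.3 and 8.0 in control.

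**Figure D5:**
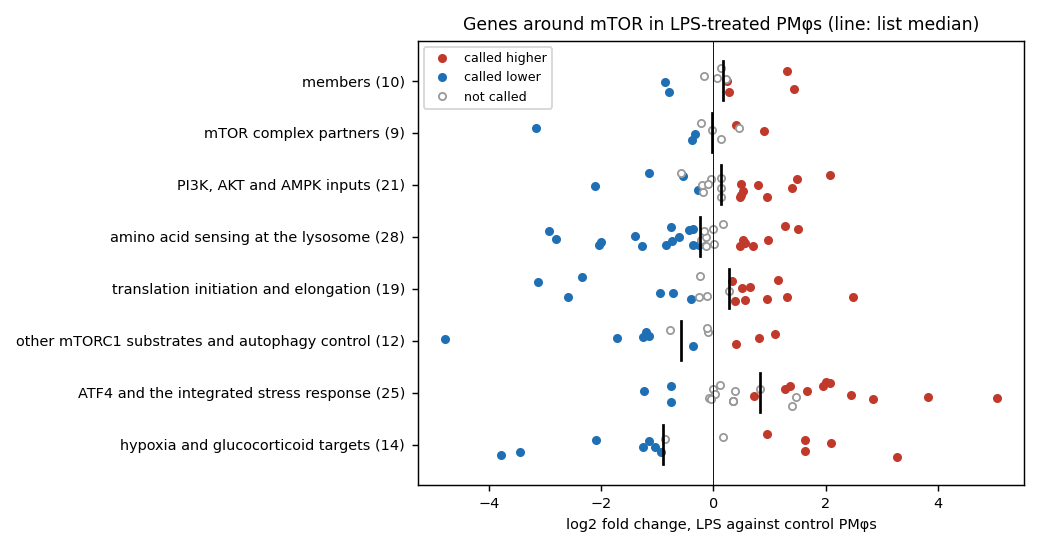
Log2 fold changes after LPS in unloaded PMφs (horizontal axis) of the 10 members and of 7 lists of genes around mTOR, 1 point per gene, filled red or blue where called higher or lower, with a black line at the list median and the number tested in brackets. List medians run from -0.89 for hypoxia and glucocorticoid targets to 0.83 for ATF4 and the integrated stress response.

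In loaded PMφs, where 28.2% of all genes were higher and 26.3% lower after LPS, the counts in these lists ran from 1 higher and 3 lower of 9 complex partners to 10 higher and 3 lower of 25 stress response genes. The called numbers of higher and lower genes were 8 and 3 of 22 for the PI3K, AKT and AMPK inputs, 7 and 12 of 28 for amino acid sensing, and 9 and 6 of 19 for translation. They were 3 and 6 of 12 for the other substrates and 5 and 6 of 14 for the hypoxia and glucocorticoid targets. Deptor fell from 700 ± 63.7 to 95 ± 26.5, Larp1 rose 4.55-fold, Mknk2 fell to 708 ± 182 from 4460 ± 657, and Eif4e rose 2.20-fold. Akt1 fell by 0.48 on the log2 scale, while Akt2 at 0.21 was not called (adjusted p = 0.165).

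For loading with oxLDL, the list calls came only from the fit with the block. Without LPS these were 4 higher and 8 lower over all 7 lists, beside 1.8% higher and 2.92% lower of all genes. The smallest adjusted p was that of Srebf2, the sterol regulator, at 2060 ± 258 against 3120 ± 256 in control (log2 -0.60, adjusted p = 0.00106 with the block and 0.513 without). Atg13, part of the autophagy-initiating complex, differed by -0.28, Pik3r1 by -0.21 and Slc7a11 by 0.90 (blocked adjusted p from 0.0163 to 0.076). With LPS present, 7 were higher and 11 lower, beside 4.42% and 8.74% of all genes. Srebf2 was again lower, 3420 ± 354 against 5570 ± 1250 (log2 -0.68, adjusted p = 0.00615 with the block and 0.698 without), and so were Hif1a at 6080 ± 183 against 8690 ± 696 and Adm at 101 ± 15 against 205 ± 42.8. Inpp5d, Eef2k and Tfeb were higher, by 0.62, 0.90 and 0.34 (adjusted p from 0.019 to 0.0722 with the block and from 0.698 to 0.752 without). The groups overlapped for Inpp5d and for Eef2k, whose means were low, at 66.3 ± 26.1 against 34.7 ± 11.9. The amino acid sensing list had 0 calls in either oxLDL comparison, with or without the block, and 0 of its 28 genes tested reached an unadjusted p under 0.05 in limma without the block.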

How the data were processed

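Poly(A) RNA of 12 PMφ libraries (4 groups of 3) was sequenced by the authors on a NovaSeq in paired reads. The submitters' notes name Trimmomatic 0.32, STAR 2.5.1b, featureCounts and the mm10 (GRCm38) build, and strand use in counting is not given in the sources used here. The deposited values are a score: gene counts that the authors scaled by 1 factor per library and rounded. Because the values are not raw counts, they were tested as log2(value + 1) with limma 3.58.1 (R 4.3.3; lmFit, and eBayes with a variance trend, two-sided) after genes that reached 10 in fewer than 3 libraries of the fit were dropped. Each pairwise fit used the 6 libraries compared, and the interaction used all 12. Benjamini-Hochberg adjustment ran over all genes tested, and genes were called at an adjusted p under 0.1. The fits were tested on simulated data in which 192 to 197 genes were changed, far fewer than LPS changed here. Of simulated log2 changes of 0.5, the fit without the block found 21.8% for oxLDL against control. It found 5.45% for oxLDL+LPS against LPS and 1.89% for the interaction. With the block these shares were 62.1%, 26.4% and 7.55%, so smaller changes can go uncalled. Intervals are 95% intervals of the fit.

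All 10 members are named. In each list the text draws on up to 2 genes called higher and 2 called lower with the smallest p. It also draws on Akt1, Akt2 and Atf4. Eif4ebp3 and Ddit4l, relatives of members, and Eif2ak1 were added after their values were seen. A gene of the lists that the rule would name is not reported here. For Ddit4, Eif4ebp1 and Mtor the 3 genes with the highest Pearson correlation over the 12 libraries are given. Partner ratios were compared by exact permutation. The members and lists were chosen with earlier results of these data known, so the counts of lists are descriptions. Cell type markers were summed per library. Whether replicate numbers pair the libraries was checked on deviations from group means over 11186 genes: libraries of one number correlated at 0.33 to 0.73, and 12 of 12 correlated best with one of their own number. The methods describe pooled and divided cells, but the labels do not say what a number shares. The source of the pairing was not tested. Fits with the replicate number as a block are given where they change a call. Genes, exons and lengths are from GENCODE vM21 (GRCm38), and upstream sequences from RefSeq (GRCm38.p6). In 25 rows the symbol had been turned into a date; they stayed in the fits and none is named.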

Additional observations from a re-analysis of the deposited data

How the results depend on the processing

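Rictor, Tsc1 and Eif4ebp2 kept their direction and their call in both LPS comparisons under every alternative run: pseudocounts, filters, scalings, all 12 libraries in the fit, no variance trend, the replicate block and each library left out. Their adjusted p ranged up to 7.449e-04 for Rictor, 0.00381 for Tsc1 and 0.00173 for Eif4ebp2 against control. The highest values in loaded cells were 0.00459, 0.00879 and 0.0188. The Mtor call against control held in 8 of 19 settings and the Rptor call in 10, and with the library total Rptor was called lower.

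Scaling to the library total, which by construction lowers all genes of the LPS libraries, reversed several signs: against control Mtor -0.23, Rptor -0.21, Rheb -0.26, Eif4ebp1 -0.41, Rps6kb1 -0.35, Tti2 -0.07 and Akt2 -0.02; Rheb, Rptor and Rps6kb1 were then called lower; in loaded cells Mtor -0.27, Rheb -0.22, Eif4ebp1 -0.19, Rps6kb1 -0.32 and Akt2 -0.18, with 7 members called in place of 4. In oxLDL+LPS against LPS Rps6kb1 turned to 0.07 with that scaling and 0.01 with TMM factors. In the interaction Rheb and Rps6kb1 turned to 0.04, and for oxLDL against control Akt1 turned to 0.00 with both. The share of higher calls went from 51.7% to 23.4% in loaded cells with the library total.

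The replicate block gave 601 calls for oxLDL against control in place of 0 and 1682 calls, 2 of them members, for oxLDL+LPS against LPS in place of 0. It changed no other call of a member besides Ddit4 in oxLDL+LPS against oxLDL. With 1 replicate number left out of the block, the counts for oxLDL against control were 214, 139 and 1285 without replicates 1, 2 and 3 (0 to 2 members), those for oxLDL+LPS against LPS were 71, 2945 and 0 (0 to 4 members), and 4 to 7 members were called for oxLDL+LPS against oxLDL. The interaction gave 0 to 9 calls in this way, and 147 with the block set within each LPS state, an alternative chosen after seeing the data that called 0 members. With single libraries left out, calls ranged from 0 to 91 for oxLDL+LPS against LPS and from 0 to 6 for the interaction, the higher value in each case without oxLDL+LPS replicate 2. Ddit4 turned to 0.02 for oxLDL against control without replicate 2, and Eif4ebp2 to -0.08 for oxLDL+LPS against LPS without replicate 1. The cause of these differences was not tested.

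Single libraries also turned signs of members that were not called. For LPS Eif4ebp1 ranged from -0.32 to 0.33 in unloaded and from -0.04 to 0.37 in loaded cells. For oxLDL against control Ddit4 ranged from -0.52 to 0.31, Eif4ebp1 from -0.03 to 0.23, Rictor from -0.15 to 0.05 and Tsc2 from -0.09 to 0.04, and of the genes around mTOR Akt1 from -0.02 to 0.04, Akt2 from -0.01 to 0.06 and Ndrg1 from -0.69 to 0.05. For oxLDL+LPS against LPS Eif4ebp1 ranged from -0.04 to 0.62, Eif4ebp2 from -0.06 to 0.07, Rheb from -0.01 to 0.19, Rps6kb1 from -0.10 to 0.07, Tsc1 from -0.16 to 0.00 and Tsc2 from -0.04 to 0.08. In the interaction Eif4ebp1 ranged from -0.13 to 0.53, Rheb from -0.15 to 0.05, Rps6kb1 from -0.14 to 0.03, Tsc1 from -0.02 to 0.15 and Tsc2 from -0.03 to 0.12. Ddit4, at 34 to 250 normalized counts, had the lowest values of the members, and the part of depth in its spread was not tested.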
